A study of Mus musculus with 6 samples.

Results

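The transforming growth factor beta (TGF-beta), activin and bone morphogenetic protein (BMP) genes of the newborn mouse pancreas were examined as a listed set of 42 genes, chosen by name, of 35527 genes in the deposited tables. They comprised 9 ligands, 3 latent TGF-beta binding proteins, 4 secreted modulators, 10 receptors, 7 SMADs, 5 intracellular regulators and 4 target genes. Whole pancreas was taken from C57BL/6 mice at day 1 after birth. The 3 KO libraries came from mice lacking miR-216a (miR216a-/-), a microRNA of the exocrine pancreas, and the 3 WT libraries from wild-type mice, each library from its own donor. The sources used here do not say how the allele was made, nor the sex or litter of the pups.

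Ligands of this family bind a complex of type I and type II receptor kinases, which phosphorylate SMAD proteins that enter the nucleus with SMAD4. TGF-beta and activin signal mainly through SMAD2 and SMAD3, and BMPs through SMAD1, SMAD5 and SMAD9. In the pancreas, activin and its antagonist follistatin are known for their part in the balance of endocrine and exocrine development, and TGF-beta for restraining epithelial growth and driving matrix production by stromal cells.

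The libraries held 20565387 to 23028718 estimated reads, and 15886 genes were tested. The 8 acinar markers, which are digestive enzyme and acinar transcription factor genes, were all detected and summed to 203860 to 254310 CPM (counts scaled to library size with TMM factors) in KO and 156440 to 224900 CPM in WT. The listed cell cycle genes were lower in KO for 12 of 12, against 7766 of all 15886 genes tested. Each had p under 0.05 before adjustment in edgeR's test, against 6.97% of all genes tested that were lower in KO at that level. Their sums were 317 to 792 CPM in KO, against 1052 to 1289 CPM in WT. This list and the other marker lists were chosen with earlier results of these data known. After adjustment edgeR and limma-voom called 0 of the 12, against 0% and 0.0126% of all genes tested. DESeq2 called 8 (2.62% of all genes tested), and edgeR without KO 1 called 9 (2.27%). WT 1 stood apart in 5 liver genes (401 CPM, against 11.1 to 27.9 CPM in the other libraries), and WT 1 and KO 2 had the highest erythroid sums (5940 and 4786 CPM, against 1705 to 2837 CPM elsewhere). Cell cycle, liver and erythroid RNA were not tested for a part in the results below. In whole tissue, fewer cells of a type and less RNA per cell cannot be told apart.

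Because the genotype removes miR-216a, its mature sequences and the matching sites in the pathway are shown first. Both arms lie on chromosome 11 of GRCm38.p6, plus strand, with sequences from RefSeq. Capitals mark the seed, bases 2 to 8.
mmu-miR-216a-5p (chr11:28757018-28757039): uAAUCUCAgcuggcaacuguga
mmu-miR-216a-3p (chr11:28757058-28757079): cACAGUGGucucugggauuaug

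In the longest annotated 3′ UTR of each gene (GENCODE M21, GRCm38), the 8mer TGAGATTA, the 7mer-m8 TGAGATT and the 7mer-A1 GAGATTA of miR-216a-5p were searched on the transcript strand, each place being counted once under its longest form. Of the 42 genes, 12 held a site (28.6%), against 2750 of 15188 tested genes with a 3′ UTR (18.1%). The median 3′ UTR was longer in the set, at 2356 bases, than in all of these genes, at 1368 bases. The 12 genes were Tgfb1, Tgfb2, Bmp5, Fstl1, Grem1, Tgfbr1, Tgfbr2, Tgfbr3, Bmpr1a, Bmpr2, Bambi and Smurf1, so 6 of the 10 receptors were among them. The 3′ UTRs of these 6 receptors ran from 3069 (Tgfbr3) to 8529 bases (Bmpr2). Those of the other receptors ran from 1105 (Acvr1) to 3481 bases (Acvr2a). The part of length in these counts was not tested. Tgfbr1 and Bmpr1a held 2 sites each. For Tgfb1 and Smurf1 the searched 3′ UTR (Tgfb1-202 and Smurf1-203) was not that of the transcript with most reads (Tgfb1-201 and Smurf1-201). Tgfb1-202, annotated as a target of nonsense-mediated decay, was given 0 reads in all 6 libraries, and Smurf1-203 was given 0 reads in the 3 KO libraries and 19.2 to 69.2 estimated reads in WT.

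The windows that follow show the pair of 8mers and the sites of the members whose values are described most closely, with the matching letters in capitals. Each lies in the 3′ UTR of the named transcript.
Bmpr2-201, 8mer (chr1:59877745-59877774, plus strand): aaaaggtcaacTGAGATTAgaataatagct
Tgfb2-201, 8mer (chr1:186625233-186625262, minus strand): aaactggcatcTGAGATTAcagcaacaaca
Tgfbr3-201, 7mer-m8 (chr5:107107043-107107071, minus strand): ttgtctggtaaTGAGATTgtaaatccatt
Tgfbr2-202, 7mer-m8 (chr9:116090096-116090124, minus strand): tcctcaggaaaTGAGATTgatttttacaa
Grem1-201, 7mer-m8 (chr2:113747928-113747956, minus strand): ctccttaagacTGAGATTctagctataaa

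A letter match is a description of the sequence and no evidence of binding. Of the 12 genes with a site, 7 had a higher and 5 a lower fitted level in KO, with a median log2 fold change of 0.04. Of the 30 without, 20 were higher and 10 lower, with a median of 0.04 as well. Over all tested genes with a 3′ UTR, the median was 0.04 for those with a site and -0.00 for those without. Bmpr2 and Tgfb2, which carry the 8mers, had log2 fold changes of 0.19 ± 0.09 and 0.04 ± 0.11 (SE).

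Levels of different genes were compared per length, in TPM (Salmon's length-scaled transcript abundance). Reads of all 42 genes were found in every library. On this scale 23 of the 42 genes averaged at least 10 TPM over the 6 libraries, 16 lay between 1 and 10 TPM, and 3 (Bmp5, Grem1 and Smad9) lay under 1 TPM. The most abundant was Fstl1, a secreted follistatin-like glycoprotein of stromal cells, at 208 ± 49.6 TPM in KO and 231 ± 49.3 TPM in WT (SD, n = 3 each). Ltbp4 followed at 69.99 ± 14.7 TPM in KO and 73.3 ± 15.4 TPM in WT, then Id2 at 64.5 ± 12.9 TPM in KO and 62.2 ± 21.1 TPM in WT. Ltbp3 stood at 59.5 ± 10.02 TPM in KO and 55.5 ± 11.03 TPM in WT. Fstl1 stood clear of these genes in every library, while Ltbp4, Id2 and Ltbp3 lay within each other's spread.

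**Figure D1:**
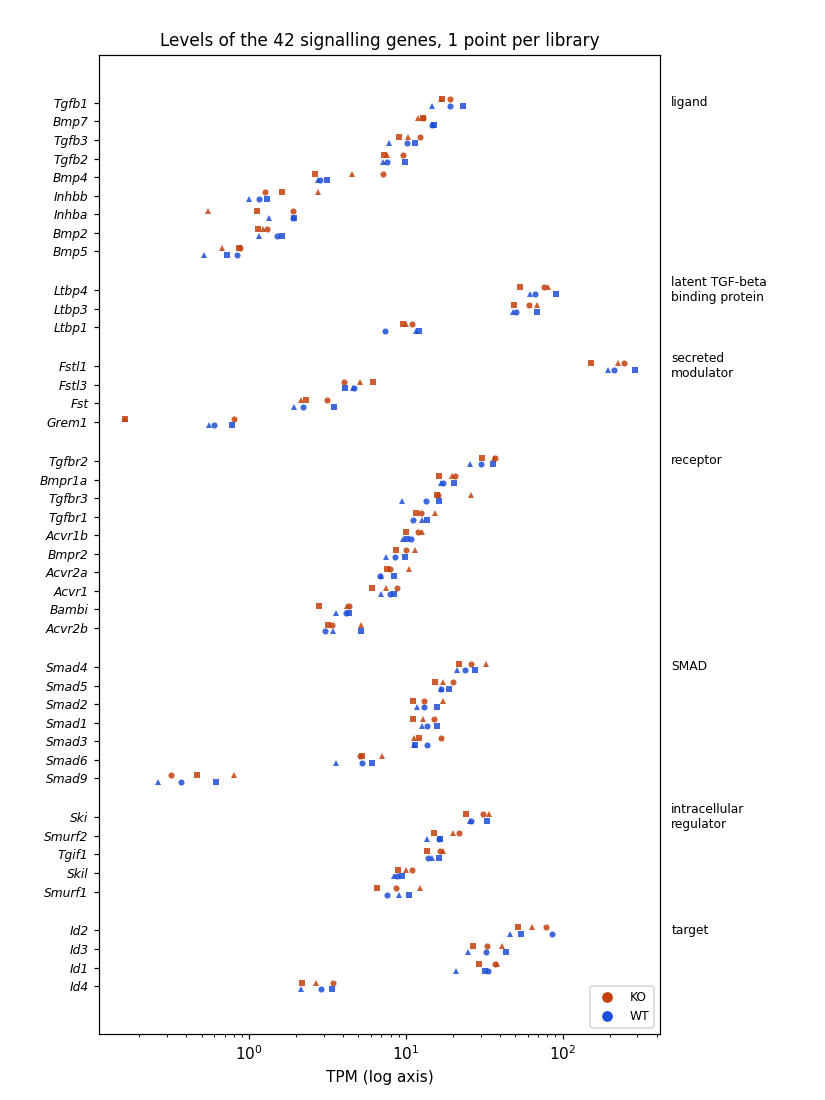
Level of each of the 42 genes in TPM on a log axis, 1 point per library, KO in orange above WT in blue, grouped by role. Fstl1 stands highest, at 208 TPM in KO and 231 TPM in WT, and the orange and blue points of most genes intermingle.

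Within the families the order was also graded. Among the TGF-beta ligands, Tgfb1 averaged 17.7 ± 1.37 TPM in KO and 19.0 ± 4.20 TPM in WT, above the others in every library of its group. Tgfb3 averaged 10.6 ± 1.69 TPM in KO and 9.80 ± 1.87 TPM in WT, and Tgfb2 8.17 ± 1.31 TPM in KO and 8.23 ± 1.49 TPM in WT, which do not differ beyond their spread. Bmp7 was the leading BMP gene, at 12.6 ± 0.525 TPM in KO and 14.9 ± 0.218 TPM in WT without overlap on this scale, and Bmp4, Bmp2 and Bmp5 each averaged under 5 TPM in both groups. The genes of the activin subunits, Inhba and Inhbb, averaged 1.19 and 1.88 TPM in KO and 1.73 and 1.16 TPM in WT. Among receptors, Tgfbr2 led at 34.7 ± 3.65 TPM in KO and 30.6 ± 5.20 TPM in WT. Among SMADs, Smad4 led at 26.8 ± 5.37 TPM in KO and 24.3 ± 3.30 TPM in WT, and Smad9 was last at 0.529 ± 0.246 TPM in KO and 0.419 ± 0.183 TPM in WT.

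The comparison of KO with WT asked whether the pathway's RNA differs when miR-216a is missing. No member passed. With edgeR's quasi-likelihood test, 0 of 42 members and 0 of 15886 genes had an adjusted p under 0.05 (background 0%). DESeq2 called 417 genes (background 2.62%) and limma-voom 2 (background 0.0126%), with 0 members in each. Without adjustment, 1 member, Tgfbr3, had p under 0.05, which is 2.38% of the members against a background of 12.6% of all genes tested. It was higher in KO (background 5.62%), and 0 members were lower in KO at that level (background 6.97%). The groups did not overlap for 7 members, or 16.7%, against a background of 19.3%. Of those, 4 were higher in every KO library (background 9.05%) and 3 lower in every KO library (background 10.3%).

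The set's median log2 fold change was 0.04, beside 0.01 for all genes tested. In KO 27 members had a higher and 15 a lower fitted level, or 64.3% higher, against 51.1% of all genes tested. The median size of the fold change, whatever its sign, was 0.13 for the members and 0.16 for all genes. The 95% interval of the log2 fold change, unadjusted, lay within ±0.5 (1.41-fold) for 25 of the 42 members, beside 43.6% of all genes tested, and reached beyond it for the other 17, which include all 4 BMP ligands, both activin subunits, Grem1 and Tgfbr3. Every member passed the minimum of 10 reads in 3 libraries, and the lowest count in a library was 11 reads, for Grem1. The replicates are separate mice, so the test measures the spread between pups.

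**Figure D2:**
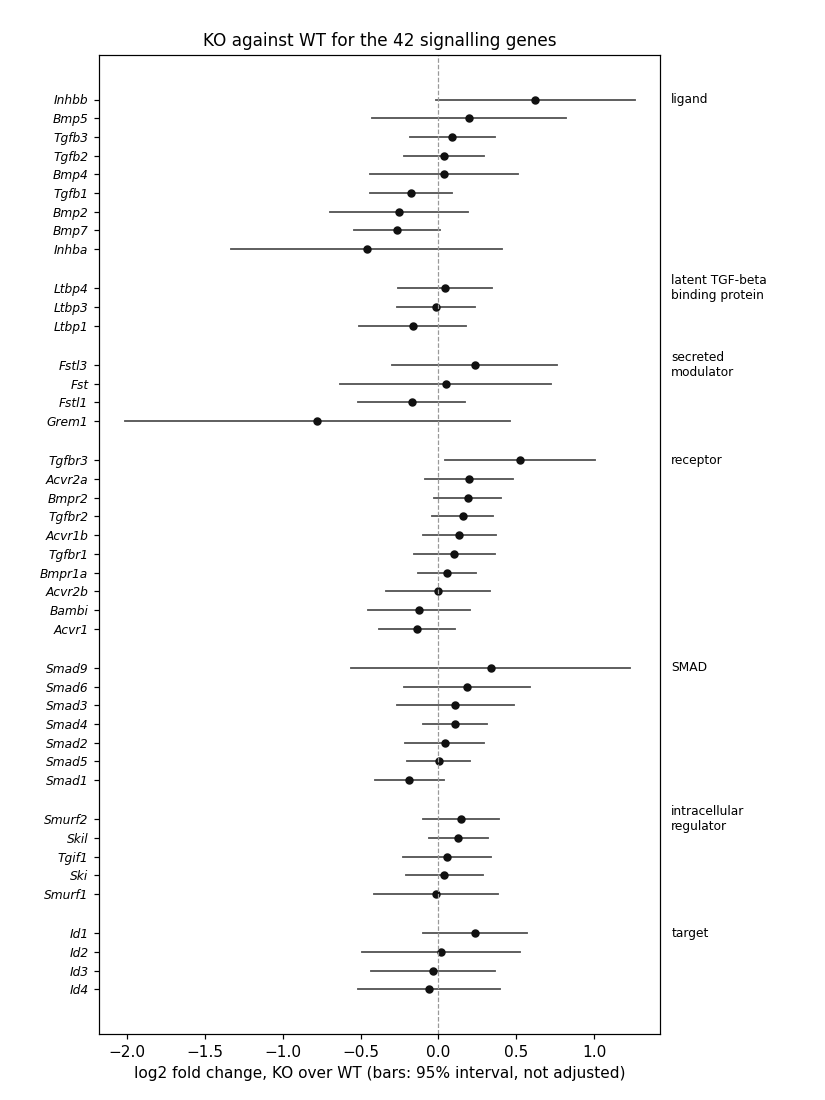
Fitted log2 fold change of KO over WT for each of the 42 genes (points) with its unadjusted 95% interval (bars), grouped by role. The interval of Tgfbr3, from 0.05 to 1.01, lies above 0, and that of Grem1, from -2.02 to 0.46, is the widest.

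Among the ligands, the genes of both activin subunits varied widely between KO pups, and their fitted fold changes had opposite signs. Inhbb, which encodes the subunit of activin B, stood at 3.16, 4.52 and 6.63 CPM in KO, against 3.13, 3.09 and 2.99 CPM in WT. Every KO library lay above the WT libraries, but KO 1 by little. The log2 fold change was 0.62 ± 0.28 (SE, adjusted p = 0.407 in edgeR's test), and 0.31 without KO 3. Over the 16 alternatives it was 0.314 to 0.845. Inhba, which encodes the subunit of activin A, stood at 7.40, 4.93 and 2.14 CPM in KO, against 6.59, 7.41 and 5.93 CPM in WT. KO 1 lay among the WT libraries, and KO 2 and KO 3 lay below them. In edgeR's test the log2 fold change of -0.46 ± 0.38 (SE) became -0.11 without KO 3 and -0.90 without KO 1.

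Bmp7, a BMP of epithelium and mesothelium, stood at 33.6, 38.2 and 31.2 CPM in KO, against 40.5, 37.0 and 46.1 CPM in WT. Only KO 2 and WT 2 crossed. The log2 fold change was -0.26 ± 0.12 (SE, adjusted p = 0.422), and -0.17 without WT 3. Over the 16 alternatives it was -0.363 to -0.169. Bmp2 stood at 2.83, 2.79 and 2.65 CPM in KO, against 3.51, 3.41 and 2.99 CPM in WT, without overlap, with a log2 fold change of -0.25 ± 0.19 (SE, adjusted p = 0.644). At 55 to 85 reads per library the interval ran from -0.70 to 0.19.

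Tgfb1, the most abundant TGF-beta ligand, stood at 25.3, 24.6 and 23.1 CPM in KO, against 28.3, 30.3 and 23.9 CPM in WT. KO 1 and KO 2 lay above WT 3, and the log2 fold change was -0.17 ± 0.11 (SE, adjusted p = 0.590). Tgfb2 and Tgfb3 overlapped between groups, with log2 fold changes of 0.04 and 0.09. Bmp5 averaged 2.17 ± 0.422 CPM in KO, against 1.88 ± 0.407 CPM in WT.

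Bmp4, a ligand of mesenchyme and mesothelium, averaged 3.88 ± 0.528 CPM in KO, against 3.79 ± 0.530 CPM in WT, a log2 fold change of 0.03. With transcript lengths as an offset it was 0.63 (edgeR adjusted p = 0.492). Per length Bmp4 stood at 7.13, 2.66 and 4.51 TPM in KO, against 2.85, 3.16 and 2.75 TPM in WT. Salmon gave Bmp4-202 27.3% of the reads in KO 1 and 40.0% in WT 2, and 0% in the other 4 libraries, from 67 to 100 reads in all. The retained-intron transcript Bmp4-204 took 6.77, 0 and 4.64% in KO and 0, 0 and 2.53% in WT. Another, Bmp4-203, took 2.44, 4.10 and 3.80% in KO and 1.23, 0 and 1.63% in WT. The part of these divisions in the length-scaled levels was not tested.

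The latent TGF-beta binding proteins, which hold the secreted ligand in the matrix, overlapped between groups. Ltbp4 stood at 274, 222 and 281 CPM in KO, against 229, 290.1 and 235 CPM in WT. Ltbp3 stood at 119, 97.5 and 119 CPM in KO, against 105, 123 and 112 CPM in WT. For both, KO 2 was the lowest library and WT 2 the highest. Ltbp1 stood at 23.5, 21.3 and 22.0 CPM in KO, against 20.99, 30.6 and 23.2 CPM in WT, and WT 2 lay apart from the other 5 libraries. The log2 fold changes were 0.04, -0.02 and -0.16.

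Among the secreted modulators, Fstl1 had the lowest value in KO 2. It stood at 699, 498 and 652 CPM in KO, against 649.5, 784 and 649 CPM in WT, with a log2 fold change of -0.17 ± 0.15 (SE, adjusted p = 0.684). The 8 listed mesenchyme genes followed the same order at the ends: they summed to 6578 to 10493 CPM in KO, lowest in KO 2, and 10110 to 12336 CPM in WT, highest in WT 2. Of these markers 6 of 8 were lower in KO, against 7766 of all 15886 genes tested, and none was at 0. In edgeR's test 4 of the 8 had p under 0.05 before adjustment, against 12.6% of all genes tested. The part of these markers in the Fstl1 values was not tested. Fst, which encodes the activin antagonist follistatin, stood at 4.76, 3.05 and 2.74 CPM in KO, against 3.41, 4.29 and 2.47 CPM in WT, overlapping throughout. Fstl3, a second secreted activin antagonist, stood at 4.85, 8.69 and 6.5 CPM in KO, against 5.78, 4.97 and 6.27 CPM in WT, where KO 1 was the lowest of the 6 libraries.

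Grem1, which encodes the BMP antagonist gremlin, split the KO pups. It stood at 2.31, 0.559 and 0.470 CPM in KO, from 49, 11 and 11 reads, and at 1.85, 2.20 and 1.85 CPM in WT, from 39, 55 and 39 reads. KO 1 was the highest of all libraries and KO 2 and KO 3 the lowest. The log2 fold change was -0.78 ± 0.54 (SE, adjusted p = 0.606). Without KO 1 it was -1.77 (edgeR adjusted p = 0.0397), and Grem1 was then the 1 member called, where 361 genes or 2.27% of all tested were called. Over the other alternatives its adjusted p was 0.383 to 0.851.

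**Figure D3:**
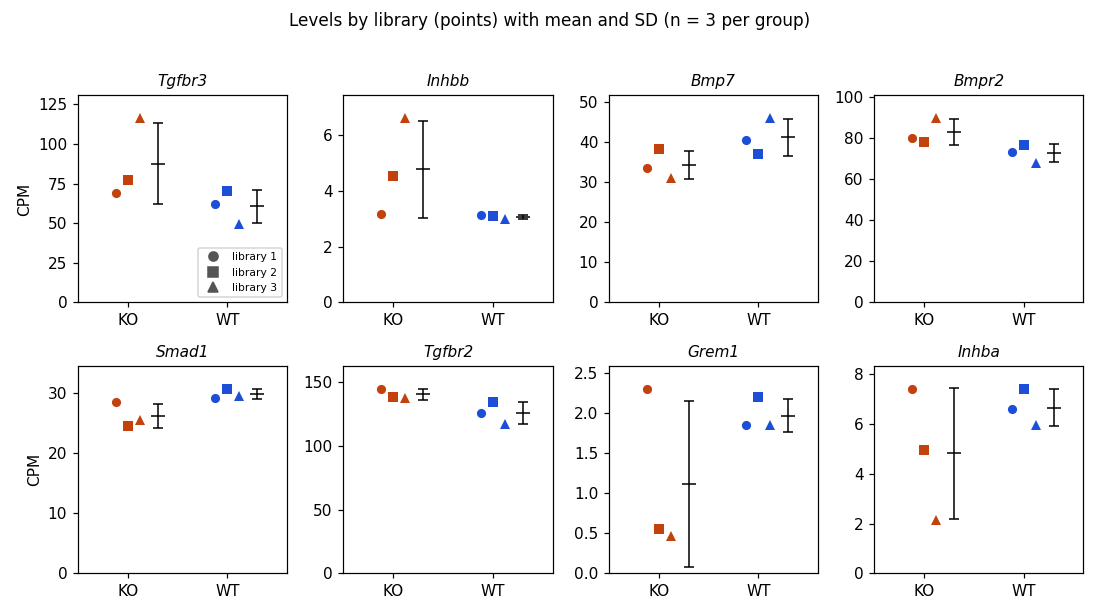
CPM of Tgfbr3, Inhbb, Bmp7, Bmpr2, Smad1, Tgfbr2, Grem1 and Inhba in each library (points, shape gives the library number), with mean and SD beside them, KO left of WT, n = 3 each. KO 3 holds the extreme value for Tgfbr3 (117 CPM) and Inhba (2.14 CPM), and KO 1 lies above the WT libraries for Grem1 (2.31 CPM).

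Of the 10 receptors, 7 had a higher and 3 a lower fitted level in KO (70% higher, against 51.1% of all genes tested). In edgeR's test 1 had p under 0.05 before adjustment and 0 were called. Tgfbr3 encodes betaglycan, a co-receptor that presents TGF-beta ligands and binds inhibin. It stood at 69.2, 77.0 and 117 CPM in KO, against 62.1, 70.6 and 49.8 CPM in WT. KO 3 lay far above the rest, and KO 1 lay below WT 2, so the groups overlapped. The log2 fold change was 0.53 ± 0.21 (SE, edgeR adjusted p = 0.354), and 0.27 without KO 3 (adjusted p = 0.512). Over the 16 alternatives it was 0.265 to 0.67, and 12 of them had p under 0.05 before adjustment in the test used. The adjusted p of these tests (edgeR, DESeq2 or limma-voom) was 0.188 to 0.728.

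The type II receptors of BMP and TGF-beta were higher in each KO library by small margins. Bmpr2 stood at 80.4, 78.4 and 90.1 CPM in KO, against 73.5, 76.7 and 68.0 CPM in WT, with a log2 fold change of 0.19 ± 0.09 (SE, adjusted p = 0.462). Tgfbr2 stood at 145, 138 and 138 CPM in KO, against 126, 135 and 118 CPM in WT, with a log2 fold change of 0.16 ± 0.08 (SE, adjusted p = 0.50). KO 2 lay just above WT 2 for Bmpr2, and KO 2 and KO 3 just above WT 2 for Tgfbr2. Acvr2a, an activin type II receptor, stood at 27.6, 30.0 and 36.3 CPM in KO, against 25.8, 28.8 and 27.4 CPM in WT, and its groups overlapped at KO 1.

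The sum of the 8 endothelial markers was also higher in every KO library, KO 1 by little. It was 676, 682 and 713 CPM in KO, against 670, 581 and 582 CPM in WT. Of these markers 7 of 8 were higher in KO, against 51.1% of all genes tested, and none was at 0. In edgeR's test 3 of the 8 had p under 0.05 before adjustment, against 12.6% of all genes tested. The WT libraries were ordered differently for the receptors, as WT 2 was the highest of them for Bmpr2, Tgfbr2 and Acvr2a. The part of the endothelial markers in the receptor values was not tested. None of the type I receptors passed the test. Acvr1b, the activin type I receptor, stood at 39.4, 37.2 and 41.6 CPM in KO, against 37.7, 32.3 and 37.6 CPM in WT. Tgfbr1 averaged 51.8 ± 6.61 CPM in KO, against 48.2 ± 2.86 CPM in WT, and Bmpr1a 79.6 ± 4.33 CPM in KO, against 76.6 ± 1.81 CPM in WT. Acvr1, a BMP type I receptor, averaged 15.2 ± 0.887 CPM in KO, against 16.8 ± 0.258 CPM in WT, and its KO libraries all lay lower (edgeR adjusted p = 0.652). Bambi, a pseudoreceptor that lacks the kinase, averaged 14.0 ± 2.23 CPM in KO, against 15.3 ± 0.587 CPM in WT. Acvr2b, the other activin type II receptor, averaged 7.07 ± 0.421 CPM in KO, against 7.08 ± 0.439 CPM in WT.

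Of the 7 SMADs, 6 had a higher and 1 a lower fitted level in KO (85.7% higher, against 51.1% of all genes tested). None passed edgeR's test. The lower one was Smad1, whose KO libraries all lay below WT. This BMP signal carrier stood at 28.5, 24.5 and 25.4 CPM in KO, against 29.1, 30.7 and 29.5 CPM in WT, with KO 1 close to WT 1. The log2 fold change was -0.19 ± 0.10 (SE, adjusted p = 0.481). Its companion Smad5 averaged 88.0 ± 6.87 CPM in KO, against 87.9 ± 2.66 CPM in WT, with an interval from -0.20 to 0.20. Smad9 stood at 1.22, 2.08 and 3.12 CPM in KO, against 1.52, 2.32 and 1.19 CPM in WT, overlapping at low counts. Its log2 fold change was 0.34 ± 0.39 (SE, edgeR adjusted p = 0.771).

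The carriers of TGF-beta and activin signals overlapped between groups. Smad3 stood at 64.9, 53.2 and 43.4 CPM in KO, against 54.8, 42.2 and 52.7 CPM in WT, and Smad2 averaged 40.0 ± 4.20 CPM in KO, against 38.9 ± 2.90 CPM in WT. The shared partner Smad4 stood at 55.7, 50.5 and 57.7 CPM in KO, against 52.5, 50.7 and 48.9 CPM in WT, where KO 2 lay below WT 1 and WT 2. Smad6, an inhibitory SMAD induced by BMP, stood at 8.76, 10.1 and 12.02 CPM in KO, against 9.85, 9.78 and 7.55 CPM in WT. Their log2 fold changes were 0.11, 0.04, 0.11 and 0.18, each with an interval that holds 0.

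Of the 5 intracellular regulators, 4 had a higher and 1 a lower fitted level in KO (80% higher, against 51.1% of all genes tested). None passed edgeR's test. Skil encodes SnoN, a repressor that holds SMAD target genes off and is itself induced by TGF-beta. It stood at 46.9, 45.1 and 43.5 CPM in KO, against 41.6, 40.5 and 41.7 CPM in WT, without overlap, with a log2 fold change of 0.13 ± 0.08 (SE, adjusted p = 0.573). Its relative Ski stood at 124, 107 and 135 CPM in KO, against 109, 125 and 122 CPM in WT, with KO libraries at both ends. The co-repressor Tgif1 stood at 17.3, 17.8 and 20.7 CPM in KO, against 16.4, 17.8 and 19.6 CPM in WT. Of the ubiquitin ligases that degrade SMADs and receptors, Smurf1 stood at 33.4, 29.4 and 46.1 CPM in KO, against 32.2, 38.4 and 39.7 CPM in WT, and Smurf2 at 54.6, 43.6 and 52.5 CPM in KO, against 47.2, 44.4 and 44.7 CPM in WT. Neither ligase separated the groups.

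Skil also had transcript shares that did not overlap between groups, which was noticed after the values were seen and is given without a test. Such separation was no more frequent among the members' transcripts than over all genes tested. Salmon placed most of the Skil reads on Skil-201, with a coding sequence of 2028 bases, and Skil-204, with 1890 bases. Their coding exons on chromosome 3 are otherwise the same, but exon 4 of Skil-201 runs 138 bases further, which is 46 codons in frame. The shorter form is known in mice as SnoN2. The bases that only the longer form carries are printed from GENCODE M21, plus strand, with the first 6, which have the letters of a 5′ splice site, in capitals.
Skil-201, end of exon 4 (chr3:31113503-31113640): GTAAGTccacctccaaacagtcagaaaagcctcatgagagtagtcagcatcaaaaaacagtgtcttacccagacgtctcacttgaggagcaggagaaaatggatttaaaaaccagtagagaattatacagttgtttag

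The longer form took 34.8, 38.0 and 40.6% of the Skil reads in KO and 19.7, 28.0 and 22.2% in WT, from 173 to 413 estimated reads. Its share was higher in every KO library, and the shorter form took 64.8, 61.4 and 57.6% in KO and 80.0, 71.7 and 77.2% in WT. Among the 29 member transcripts that held 10 to 90% of a gene with at least 100 reads on average, shares did not overlap for 3, the other being Tgfb2-206, at 16.1, 16.5 and 18.4% in KO and 8.96, 15.8 and 13.0% in WT. Over all genes tested, 11.6% of such transcripts did not overlap, so 3 of 29 was no more than this background. The longer and shorter Skil forms hold nearly all reads of the gene, so their shares mirror each other and are not separate observations. The share rests on how Salmon divides reads between near-identical transcripts.

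**Figure D4:**
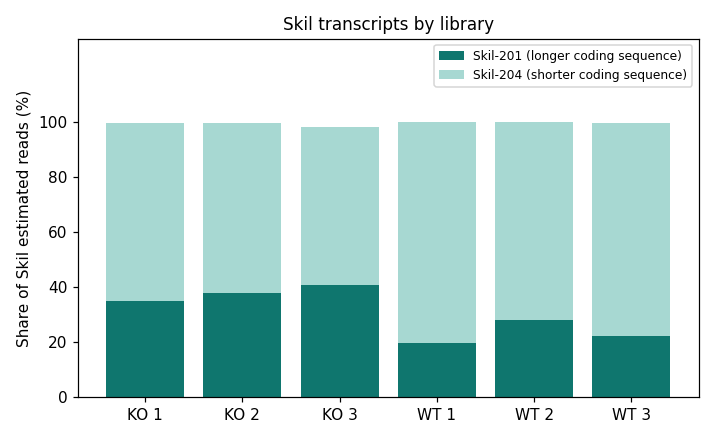
Share of the estimated reads of Skil on Skil-201, the longer coding form (dark), and Skil-204, the shorter form (light), in each library, KO left of WT, in percent. The dark part is 34.8 to 40.6% in KO and 19.7 to 28.0% in WT.

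The Id genes, which encode dominant-negative partners of basic helix-loop-helix factors and are induced by BMP, did not separate the groups. Id1 stood at 20.5, 18.8 and 21.6 CPM in KO, against 20.0, 17.5 and 14.1 CPM in WT, with a log2 fold change of 0.24 ± 0.14 (SE, adjusted p = 0.556). KO 2 lay below WT 1, and WT 3 below the rest. Id2 stood at 54.5, 41.5 and 44.7 CPM in KO, against 64.2, 37.5 and 37.4 CPM in WT. WT 1, which stood apart in liver RNA and had a high erythroid sum, was the highest of all for Id2. KO 2, also with a high erythroid sum, was the lowest of the KO libraries. The log2 fold change of 0.02 became 0.32 without WT 1 (edgeR adjusted p = 0.412). The part of liver and erythroid RNA in the Id2 values was not tested. Id3 stood at 26.1, 23.1 and 33.2 CPM in KO, against 27.1, 33.5 and 23.7 CPM in WT, and Id4 at 7.54, 5.39 and 5.77 CPM in KO, against 6.78, 7.33 and 5.36 CPM in WT. Their log2 fold changes were -0.03 and -0.06, with intervals from -0.43 to 0.36 and from -0.52 to 0.40.

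Single libraries held many of the extremes. KO 3 was the highest or lowest library for 20 members, or 47.6%, against 46.8% of all genes tested. It was the highest for 14 members (24.2% of all genes) and the lowest for 6 (22.6% of all genes). KO 1 was the highest for 11 (14.6% of all genes) and the lowest for 2 (14.7%), and KO 2 the highest for 2 (18.1%) and the lowest for 11 (19.4%). Of the WT libraries, WT 3 was the highest for 1 member (18.7%) and the lowest for 14 (17.8%). WT 2 was the highest for 10 (11.8%) and the lowest for 3 (13.2%), and WT 1 the highest for 4 (12.7%) and the lowest for 6 (12.3%).

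The wider pathway was read from 74 further genes, of which 54 had enough reads to be tested. In edgeR's test 0 were called, and the median log2 fold change was 0.03. In KO 29 were higher and 25 lower, or 53.7% higher, against 51.1% of all genes tested. Before adjustment 7 genes, or 13.0% of those tested, had p under 0.05, against 12.6% of all genes. KO was the higher group for 4 of these 7 and the lower for 3. Groups did not overlap for 9 of the 54 (16.7%, background 19.3%).

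The smallest p values belonged to a ligand and a type I receptor. Gdf10, which encodes a BMP-related ligand also called BMP3B, stood at 22.1, 32.2 and 32.1 CPM in KO, against 20.99, 19.3 and 16.9 CPM in WT. Its log2 fold change was 0.59 ± 0.16 (SE, edgeR adjusted p = 0.242), and it was called without KO 1 (0.75, adjusted p = 0.0311). Acvr1c, which encodes the type I receptor ALK7, stood at 10.3, 14.1 and 8.85 CPM in KO, against 7.44, 5.65 and 7.07 CPM in WT, with a log2 fold change of 0.71 ± 0.21 (SE, adjusted p = 0.252). For both, every KO library lay above the WT libraries. ALK7 is known from fat and islet cells. The 9 endocrine markers (islet hormone and granule genes and the transcription factor gene Mafa) summed to 6424 to 7034 CPM in KO, against 7276 to 9309 CPM in WT. Of these, 7 of 9 were lower in KO, against 7766 of all 15886 genes tested, and none was at 0. In edgeR's test 4 of the 9 had p under 0.05 before adjustment, against 12.6% of all genes tested. The 4 adipocyte markers summed to 53.7 to 116 CPM in KO, against 36.7 to 48.5 CPM in WT. Of these, only Fabp4 and Pparg had enough reads to be tested, and both were higher in KO, as were 51.1% of all genes tested. Plin1 and Adipoq were not tested, and Adipoq had 1, 1 and 0 reads in KO and 0 in each WT library. The part of either list in the Acvr1c values was not tested.

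Gdf6, which encodes a BMP-type ligand, stood at 1.04, 0.965 and 1.11 CPM in KO, against 1.61, 2.64 and 1.66 CPM in WT, a log2 fold change of -0.87 ± 0.29 (SE, adjusted p = 0.277). The co-repressor Tgif2 stood at 17.7, 12.1 and 16.4 CPM in KO, against 19.3, 21.4 and 24.6 CPM in WT, a log2 fold change of -0.49 ± 0.16 (SE, adjusted p = 0.280). Both were lower in every KO library.

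Lrrc32 encodes GARP, which anchors latent TGF-beta on cells, and Acvrl1 encodes ALK1, the BMP type I receptor of endothelium. Lrrc32 stood at 28.3, 37.9 and 32.5 CPM in KO, against 24.5, 27.0 and 26.1 CPM in WT, a log2 fold change of 0.34 ± 0.12 (SE, adjusted p = 0.310). Acvrl1 stood at 44.9, 42.9 and 54.0 CPM in KO, against 39.3, 39.7 and 34.1 CPM in WT, a log2 fold change of 0.33 ± 0.12 (SE, adjusted p = 0.314). For both, every KO library lay above the WT libraries, as did the sum of the endothelial markers given above. Its part in these values was not tested. The last of the 7 genes, Fkbp1a, which encodes a protein that binds type I receptors and was named after its value was seen, averaged 98.9 ± 6.39 CPM in KO, against 114 ± 1.15 CPM in WT (adjusted p = 0.359).

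**Figure D5:**
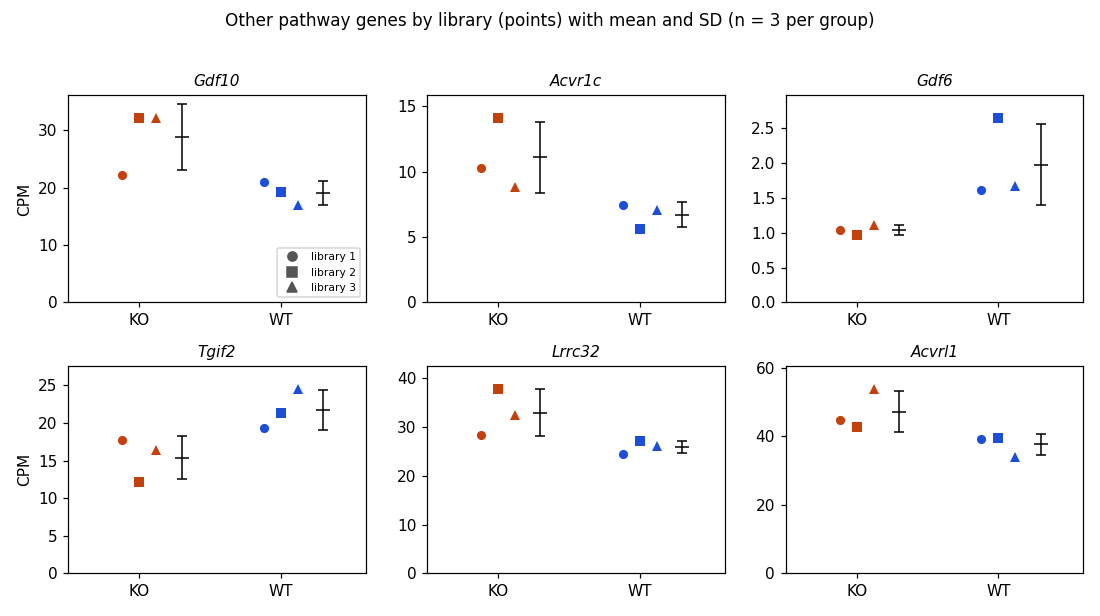
CPM of Gdf10, Acvr1c, Gdf6, Tgif2, Lrrc32 and Acvrl1 in each library (points, shape gives the library number), with mean and SD beside them, KO left of WT, n = 3 each. The KO points lie above the WT points for Gdf10, Acvr1c, Lrrc32 and Acvrl1 and below them for Gdf6 and Tgif2, with KO 1 closest to WT for Gdf10 at 22.1 CPM.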

How the data were processed

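Per the labels' protocols, RNA was prepared with a stranded mRNA kit. Per the submitters' processing notes, bcl2fastq, Salmon 0.13.1, DESeq2 1.24.0 and the build mm10 were used, and no source used here names the transcript set. The authors deposited, per library, Salmon's estimated counts (not normalized) and TPM values per transcript. The authors' scaled table for the whole series was not used. Of 116248 transcripts, 115995 matched GENCODE M21 by versioned identifier. The rest held 0.0341 to 0.0458% of the reads.

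Estimated counts and TPM were summed per gene with Python 3.11.15 and pandas 2.3.3, and counts were rounded. Genes with at least 10 reads in at least 3 libraries were tested with edgeR 4.0.16 in R 4.3.3 (quasi-likelihood test, TMM, Benjamini-Hochberg over 15886 genes). CPM are TMM-scaled. The common biological coefficient of variation was 18.4%. Replicate numbers follow sample order and pair no samples. Per the labels each library has its own donor. No pair of libraries agreed within counting noise (chi-square per degree of freedom 22.3 to 85.5), so none was treated as a library deposited a second time, which does not bear on whether the animals were independent. With 3 against 3 libraries an exact permutation p cannot go below 0.1. Alternatives were other scalings, filters, a length offset, DESeq2 1.42.0, limma-voom (limma 3.58.1) and leaving out libraries. The code was tested on simulated data.

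The members, the wider pathway list and the marker lists were chosen with earlier results of these data known. All members are named, with every library's values for those with the smallest p in each role (up to 5), and from the wider list the 6 genes with the smallest p and at least 1 CPM on average. The members were matched to RefSeq microRNA sequences and GENCODE transcripts of GRCm38.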

Additional observations from a re-analysis of the deposited data

How the results depend on the processing

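The number of genes called was 0 in the edgeR test, and 0 under other scalings, filterByExpr, a minimum of 1 CPM and a length offset. It was 1 without a low count filter, 417 with DESeq2, 2 with limma-voom and 2 without WT 1 and KO 2. Leaving out each library in turn gave 0 to 361 genes, 0 to 1 members and 0 to 1 other pathway genes, and each nonzero value came without KO 1: 361 genes, the member Grem1 (log2 fold change -1.77) and the pathway gene Gdf10 (0.75). The cause was not tested. The members' median log2 fold change ranged from 0.01 to 0.09 when libraries were left out. Of the 42 members, 21 kept the sign of their fold change in all 16 alternatives and 21 did not, and the sizes of those 21 fold changes were at most 0.34 on the log2 scale. With 8mer and 7mer-m8 sites only, 10 members held a site in place of 12. The 10 most abundant members were the same 10 when mitochondrial and digestive enzyme genes were left out of the total. Fewer than 200 reads in every library were found for 11 members (Grem1, Bmp2, Bmp4, Bmp5, Fst, Fstl3, Inhba, Inhbb, Acvr2b, Smad9 and Id4), with standard errors of 0.14 (Acvr2b) to 0.54 (Grem1) on the log2 scale. The parts of depth and of spread between pups in these errors were not told apart. No paired analysis was possible because the labels give the groups no shared replicate numbers.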
